A study of Mus musculus with 4 samples.

Results

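The 8 genes described here mark the dental epithelium or regulate epithelial identity: Trp63, Grhl2, Grhl3, Esrp1, Cdh1, Cldn4, Epcam and Krt14. The set was chosen by name after an earlier reading of these lists, with the presence, position and signal of its peaks known. It makes up 8 of 21523 protein-coding genes that could be placed on chromosomes 1 to 19 and X. Occupancy was measured by CUT&RUN, in which an antibody tethers a nuclease to chromatin and the DNA cut free around it is sequenced. Molar germs from CD1 wild-type mice, collected at E13.5 (embryonic day), were dissociated to single cells. Phosphorylated Smad1/5 (pSmad1/5) was targeted in 2 libraries and phosphorylated Smad3 (pSmad3) in the other 2. The authors deposited 1 list per antibody, of 10741 pSmad1/5 and 7905 pSmad3 peaks, described as common to its 2 libraries. Values per library and read depth are not used here, so no result has a replicate check. Whole germs hold epithelium and mesenchyme, and no expression was measured, so a peak cannot be assigned to either tissue and the epithelial label of the genes cannot be tested.

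Smad1 and Smad5 are phosphorylated by BMP receptors and Smad3 by TGF-β and activin receptors. The phosphorylated forms join Smad4, enter the nucleus and bind short DNA elements, often beside other transcription factors. In the early tooth the epithelium buds into the mesenchyme, and BMP signals pass between the tissues. Epithelial identity depends on transcription factors such as p63 and the Grainyhead-like proteins, on epithelial splicing factors, and on the junction proteins and keratins that hold the sheet together.

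A gene's locus was its body plus 10 kb on either side, and a peak belonged to it if they shared at least 1 bp. pSmad1/5 peaks fell in the loci of 5 of the 8 (Krt14, Cldn4, Esrp1, Grhl2 and Grhl3), and pSmad3 peaks in that of 1 (Grhl3). The background over all protein-coding genes was 27.3% for pSmad1/5, 24.4% for pSmad3, 14.1% for both and 62.4% for neither. Since the set was proposed with these peaks known, its counts are a description and nothing is read from their distance to the background. Grhl3 alone had peaks of both antibodies, 4 genes had pSmad1/5 without pSmad3 (13.2% of all genes), 0 had pSmad3 without pSmad1/5 (10.3% of all genes), and Cdh1, Epcam and Trp63 had neither. A missing peak means that none was deposited there, not that the protein was absent.

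**Figure D1:**
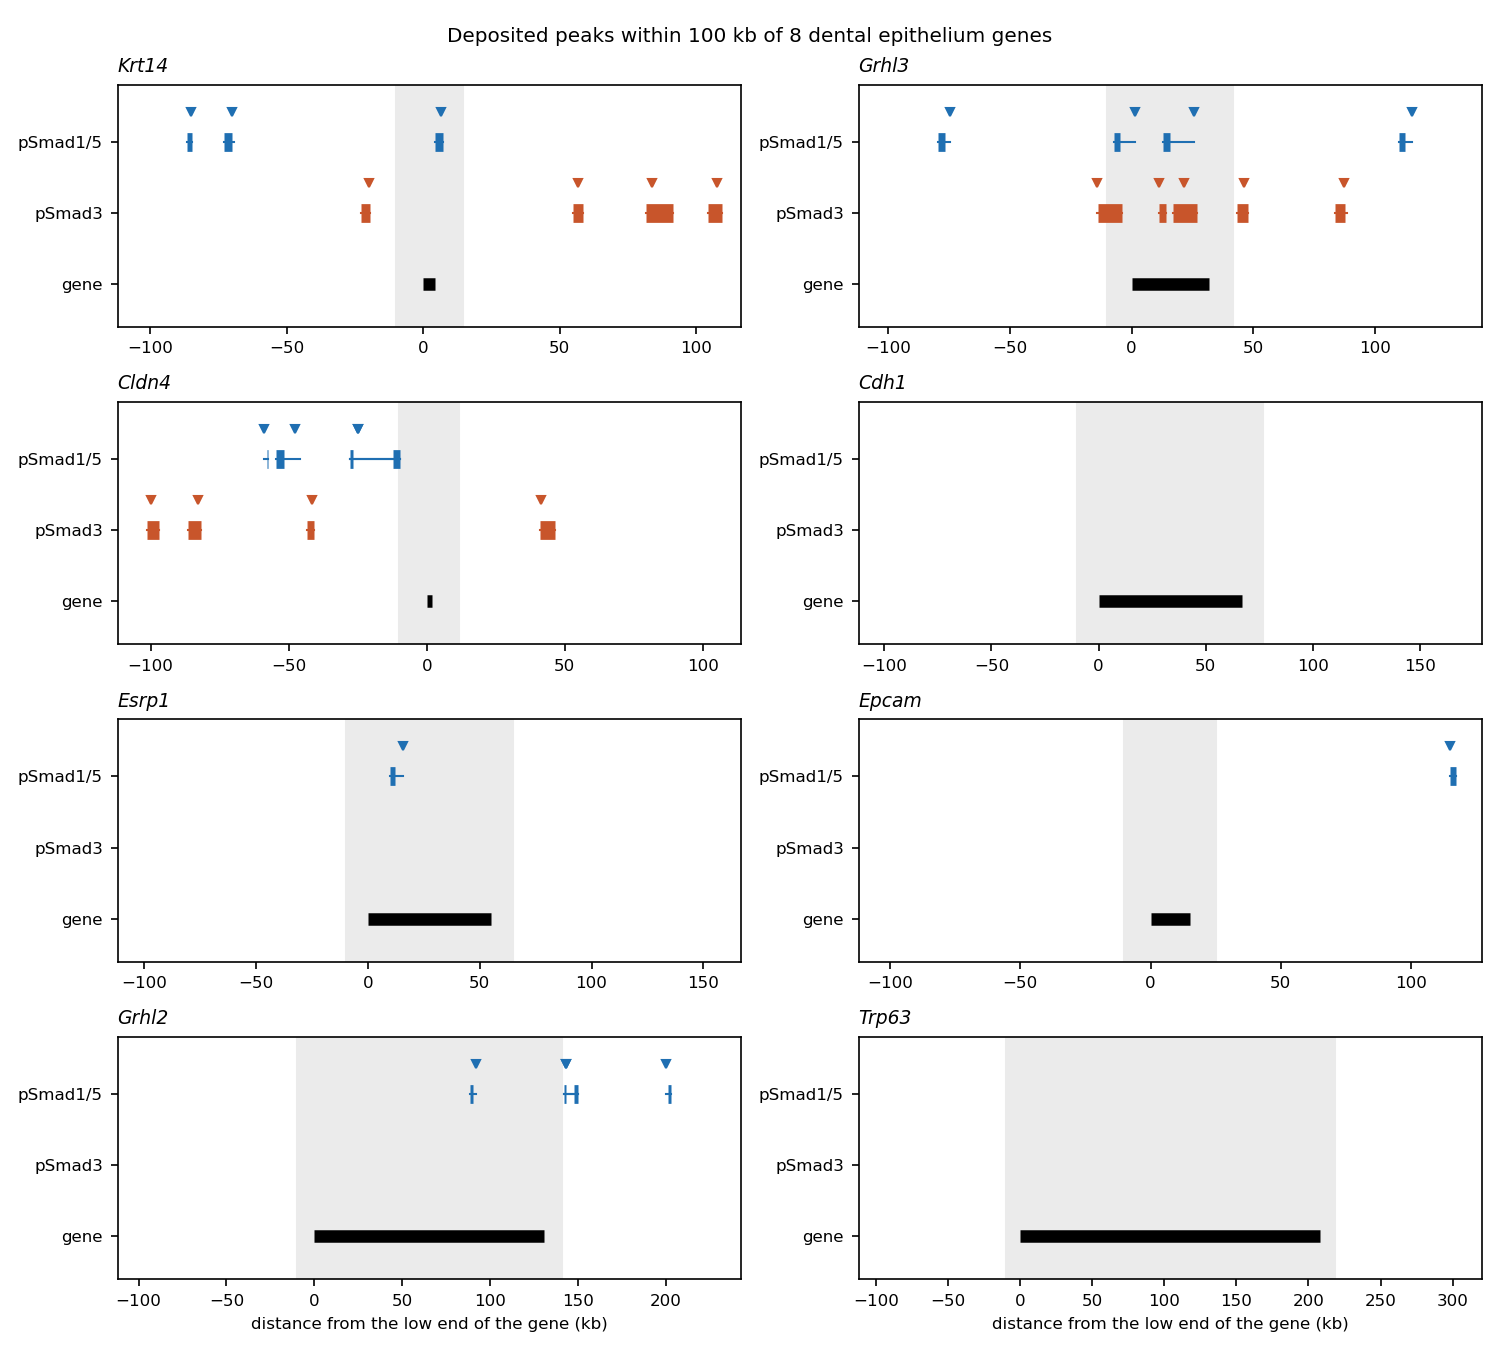
Map of the deposited peaks (thick bars) of each antibody within 100 kb of the 8 genes, in kb from the end of the gene with the lower coordinate; thin lines join the pieces and the maximum of a call, triangles mark the maximum, black bars are genes and grey bands the loci. Peaks of both antibodies stand in the locus of Grhl3, pSmad1/5 peaks alone in those of Krt14, Cldn4, Esrp1 and Grhl2, and none in those of Cdh1, Epcam and Trp63.

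Signals below are the authors' coverage values for the peak's call, total and maximum, ranked only within a list. The percentile ranks a total within its list. The median maximum was 16 in the pSmad1/5 list (quartiles 15 and 19) and 13 in the pSmad3 list (12 and 15). Lines with the same total, maximum and place of the maximum are pieces of 1 call. The maximum belongs to the call and may lie outside the peak itself, even where the call has only 1 piece. In the pSmad1/5 list, 37.8% of peaks came from calls of several pieces, while only 27.1% contained their maximum.

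Trp63 encodes p63, a transcription factor required for stratified epithelia. Its gene (chr16:25683763-25892088) is, at 208 kb, the longest of the 8, and no peak of either list lay in it or within 100 kb. The nearest pSmad1/5 peak was 1427 kb away and the nearest pSmad3 peak 1530 kb away. Of all protein-coding genes, 3.75% were farther from a pSmad1/5 peak and 6.76% from a pSmad3 peak. Trp63 thus lay in a stretch of 3.17 Mb without any deposited peak, shared with 10 other protein-coding genes, among them Cldn1, which encodes a tight junction claudin. Of the 21497 protein-coding genes for which such a stretch could be computed, 6.83% lay in one at least as long.

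Grhl2 (chr15:37232821-37363569) encodes a Grainyhead-like factor that activates genes of cell junctions. It held a single pSmad1/5 peak (chr15:37321159-37322815), 40754 bp inward from the nearer gene end. Its total of 37995 was low in the list (percentile 10.1), while its maximum of 16 equalled the list median. Outside the locus, 3 more pSmad1/5 peaks from 2 calls lay 11426 to 70271 bp beyond the gene, all touching Ncald, a neighbouring gene for a calcium sensor. The nearest pSmad3 peak was 152 kb away. Among the members with a pSmad1/5 peak, Grhl2 had the lowest pSmad1/5 total. It had no peak when only the upper 50% of each list by total signal was kept.

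Grhl3 (chr4:135541887-135573632), a second Grainyhead-like factor with a role in epidermal differentiation, had the most peaks of the set, 2 for pSmad1/5 and 3 for pSmad3. At least as many of both stood at 1.62% of protein-coding genes. With the gene body alone, or with each peak given only to its nearest gene, Grhl3 had 1 pSmad1/5 and 2 pSmad3 peaks. The pSmad1/5 peak with the higher total lay inside the gene (chr4:135554811-135557519), with a total of 148845 (percentile 87.8) and a maximum of 17. The maximum lay 10043 bp from this peak, still inside the gene. The other pSmad1/5 peak, with the higher maximum, stood 4657 bp outside the gene (chr4:135534651-135537230, total 53680, percentile 48.1, maximum 19). That outer peak touched the neighbouring gene Stpg1, but the maximum of its call lay inside Grhl3.

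For pSmad3, a 9975 bp peak began 3836 bp outside Grhl3 over Stpg1 (chr4:135528077-135538051), with a total of 62016 (percentile 89.5) and a maximum of 12. The maximum of that call lay 314 bp from the peak on the side away from Grhl3. It was 14124 bp from the gene, outside the locus. Inside the gene lay a peak with the highest of the 3 maxima, 20, but a low total of 22650 (chr4:135553004-135556194, percentile 15.9). The third, also inside (chr4:135559061-135568597), had a total of 44893 (percentile 79.4) and a maximum of 15. By position the lists met at 2 places. The outer pSmad1/5 peak lay wholly within the outer pSmad3 peak, sharing 2580 bp, and the inner pair shared 1384 bp. The third pSmad3 peak was 1542 bp from the inner pSmad1/5 peak and contained the maximum of that pSmad1/5 call. Over the whole lists, 21.9% of pSmad1/5 and 23.1% of pSmad3 peaks overlapped the other.

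The start of Grhl3 lay outside every peak. RefSeq (GRCm38.p6, the assembly of mm10) places it at the high end of the gene, on the minus strand, and the 250 bases before it (chr4:135573633-135573882) were 5036 bp from the nearest pSmad3 and 16114 bp from the nearest pSmad1/5 peak. Promoter windows were listed for 4 of the 8 genes. Those of Grhl3, with peaks of both antibodies, Cldn4, with 1 pSmad1/5 peak, and Epcam, with none, are shown so that the start regions of genes with and without nearby peaks can be compared. Each is printed 5′ to 3′ and ends at the base before the start. Capitals mark the Smad element GTCT on either strand (AGAC in the printed strand).

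Grhl3: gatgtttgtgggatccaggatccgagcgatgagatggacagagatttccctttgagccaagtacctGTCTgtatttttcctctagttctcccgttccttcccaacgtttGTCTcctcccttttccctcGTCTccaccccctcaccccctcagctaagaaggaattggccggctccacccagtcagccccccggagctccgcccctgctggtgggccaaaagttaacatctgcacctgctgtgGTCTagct
Cldn4: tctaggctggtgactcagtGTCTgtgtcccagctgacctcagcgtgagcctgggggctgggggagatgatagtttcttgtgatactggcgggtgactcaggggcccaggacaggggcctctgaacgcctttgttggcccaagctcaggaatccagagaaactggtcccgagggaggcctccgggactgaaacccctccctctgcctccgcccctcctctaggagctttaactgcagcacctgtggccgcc
Epcam: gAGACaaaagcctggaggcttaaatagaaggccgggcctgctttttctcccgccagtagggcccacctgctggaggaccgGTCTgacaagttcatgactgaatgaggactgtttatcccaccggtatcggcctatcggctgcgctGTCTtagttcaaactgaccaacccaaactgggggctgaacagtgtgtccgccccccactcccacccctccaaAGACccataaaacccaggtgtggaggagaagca

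The Smad element occurred 4 times before Grhl3, 1 time before Cldn4 and 4 times before Epcam, the gene without a peak. Of 21045 protein-coding promoter windows of this length, 81.6% held it, with a median of 2 (quartiles 1 and 3). None of the 3 held the palindrome GTCTAGAC (0.185% of windows), the GC-rich element GGCGCC (12.4%) or the composite BMP element, GGCGCC with GTCT after a gap of 5 bases (0.0808%). The AP-1 motif TGANTCA, in 6.17% of windows, occurred 2 times before Cldn4. The E-box CAGGTG or its complement CACCTG, which Snail and Zeb repressors of epithelial genes can bind, was in 3 of the 4 member windows, the printed ones, and in 17% of all windows. It stood 14 to 19 bases before the start of Grhl3 and 9 to 14 before that of Cldn4, and 2 copies preceded Epcam. None held the Grhl motif AACCNGTT (1.72%), the p63 core, CATG repeated after a gap of 6 bases (0.428%) or TATAAA (11.7%), and Grhl3 held CCAAT (35.6%). The window of Krt14, which is not printed, held GTCT 3 times and no match to any of the other motifs. All motifs were searched on both strands, and the palindrome and the composite element each contain GTCT. A match is only letters in the window, and since no peak covered these windows, the matches are not sites of the peaks.

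Esrp1 (chr4:11331933-11386783) encodes a splicing factor that sets epithelial exon choice. It had 1 pSmad1/5 peak, inside the gene (chr4:11341818-11343909), 9885 bp from the low gene end. Its total was 78447 (percentile 68.1) and its maximum 15, just under the list median, placed 3818 bp from the peak and still inside the gene. This was the only peak of either list within 100 kb. The nearest pSmad3 peak was 411 kb away, and 21.4% of protein-coding genes were farther from one. Its paralog Esrp2 had 1 peak of each antibody, over opposite gene ends (percentiles 13.53 for pSmad1/5 and 60.8 for pSmad3). Among the Grainyhead-like genes, Grhl1 had 1 pSmad3 peak (percentile 40.6) and no pSmad1/5 peak, so the 3 paralogs had 3 different combinations of peaks.

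Cdh1 (chr8:106603350-106670247) encodes E-cadherin, the adhesion protein of epithelial adherens junctions. No peak of either list lay within 100 kb of it. The nearest were a pSmad3 peak at 115 kb (percentile 91.9) and a pSmad1/5 peak at 240 kb (percentile 4.06). It lay in a stretch of 417 kb without peaks that also held Cdh3, which encodes P-cadherin. Stretches at least this long held 36% of the measured protein-coding genes.

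Epcam (chr17:87635979-87651127), the gene for an epithelial surface adhesion protein, also had no peak in its locus. A single pSmad1/5 peak, 99.9 kb away over Kcnk12 (percentile 18.6), was the only one within 100 kb. The nearest pSmad3 peak was at 269 kb. Of the 8 genes, 2 (Cdh1 and Trp63) had no pSmad1/5 peak within 100 kb, against 40.1% of all protein-coding genes. No pSmad3 peak lay within 100 kb of 5 (those 2, Epcam, Esrp1 and Grhl2), against 45.8%. The 2 without either antibody compared with 31.1% of all genes. Among the 500 genes closest in locus length, the share without any peak in the locus was 56% for Cdh1, 61.8% for Epcam and 49.6% for Trp63.

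Cldn4 (chr5:134945123-134946934), which encodes a tight junction claudin, owed its call to the outermost part of the locus. Its pSmad1/5 peak (chr5:134932777-134935413) ended 9710 bp downstream of the gene and lay within Mettl27, the nearer gene. It is 1 of 2 pieces of a call whose maximum lay 25.1 kb from Cldn4, next to the other piece. The call had a total of 113544 (percentile 82.1) and a maximum of 24, above the upper quartile of the list. This peak was the closest to the edge of the 10 kb rule on the inside. Just outside stood the Grhl2 peak at 11426 bp and a pSmad3 peak 11688 bp upstream of Grhl3 (percentile 23.8). With a reach of 5 kb, with the gene body alone, with the midpoint or at least 50% of the peak inside the locus, with each peak given only to its nearest gene, or by the place of the maximum, Cldn4 had no peak, which left 4 genes with pSmad1/5.

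Around Cldn4, 4 pSmad3 peaks lay outside the locus, 39.2 to 97.1 kb away, with percentiles of 6.75 to 36.6. The closest covered the whole of Cldn3, a neighbouring claudin gene, and this was the only peak in the locus of Cldn3. No pSmad1/5 peak within 100 kb of Cldn4 overlapped a pSmad3 peak. By the 10 kb rule Cldn4 and Cldn3 had their peaks in different lists, which rests on the edge peak of Cldn4. With a reach of 50 kb, Cldn4 had 2 peaks of each antibody.

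Krt14 (chr11:100203162-100207510), the keratin of the basal layer, was the only member with a peak over a gene end. RefSeq lists it on the minus strand, so the pSmad1/5 peak (chr11:100207379-100210203) covered the first 132 bp of the gene and 2693 bp upstream. Its maximum lay inside the peak, 2034 bp upstream of the gene. The total was 97140 (percentile 77.1), but the maximum of 14 was the lowest among the pSmad1/5 calls of the 8 genes and under the lower quartile of the list. The promoter window listed for Krt14 belongs to a start 1480 bp inside the gene, 1099 bp from the peak, and is not printed for that reason.

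Krt14 stands in a cluster of type I keratin genes, and both lists had other peaks within 100 kb, some of them over keratin genes. At 70.2 and 84.8 kb downstream, pSmad1/5 peaks lay over gene ends of Krt15 (percentile 0.307) and Krt13 (51.3). A pSmad3 peak 50.5 kb upstream lay over a gene end of Krt17 (percentile 11.2). The nearest pSmad3 peak, 19.5 kb downstream near Krt9, reached percentile 77.4, and a 9824 bp one at 77.3 kb upstream reached 92. Neither of these touched a keratin gene. No peak within 100 kb of Krt14 overlapped a peak of the other antibody.

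**Figure D2:**
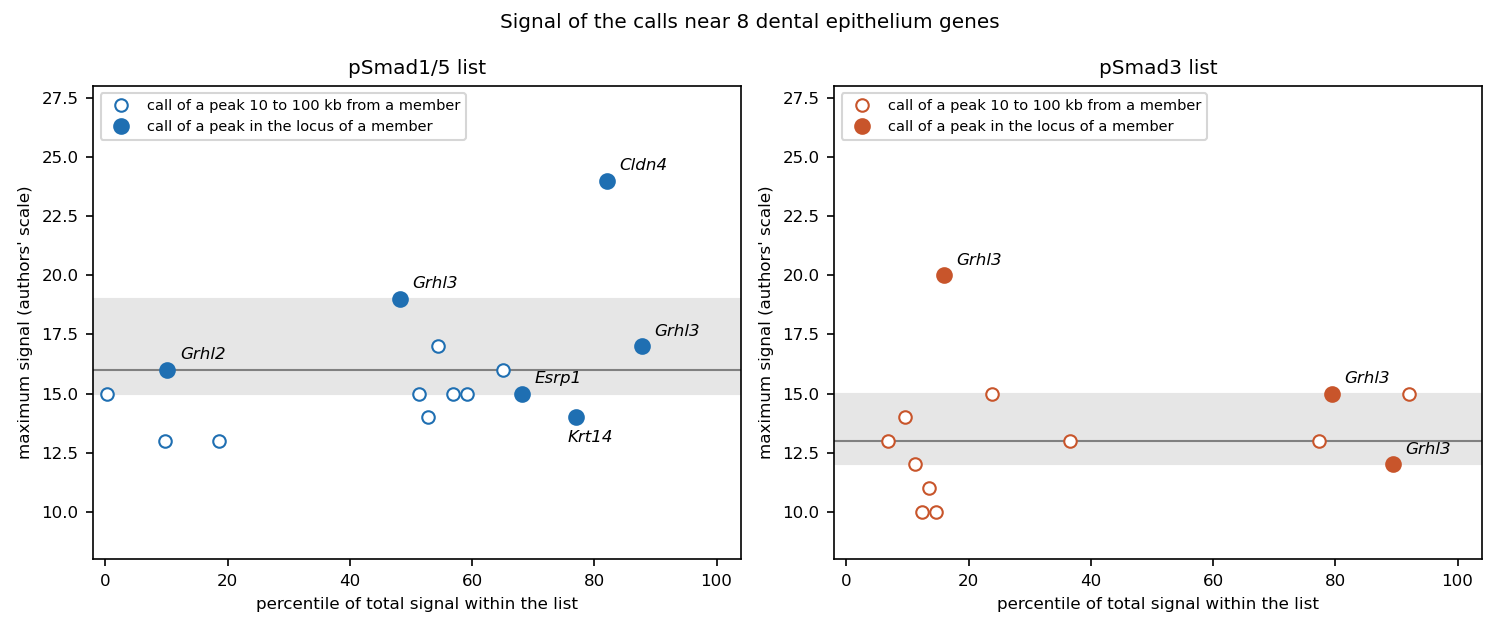
Maximum signal (authors' scale) against percentile of total signal for calls near the 8 genes, 1 panel per list; filled points have a peak in a locus, open points one 10 to 100 kb away, the line is the list median of the maximum and the band its quartiles. Cldn4 has the highest maximum (24) and Grhl3 the highest percentile (87.8) for pSmad1/5, and the 3 filled pSmad3 points are all Grhl3.

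Across the set, total and maximum gave different orders. By total signal the pSmad1/5 peaks ran from percentile 10.1 at Grhl2 and 48.1 outside Grhl3, through Esrp1, Krt14 and Cldn4, to 87.8 inside Grhl3, with a median of 72.6 over 6 peaks. By maximum, Cldn4 came first with 24 and Krt14 last with 14. Of the 6 peaks, 3 had a maximum above the list median, and none of the 9 peaks of either antibody exceeded 2 times that median. Such high maxima were few in the whole lists too, at 965 of 10741 pSmad1/5 and 472 of 7905 pSmad3 peaks. Their absence among 9 peaks is therefore not read as a trait of the set. A peak contained its own maximum for 1 of the 6 pSmad1/5 peaks (27.1% in the whole list) and for 2 of the 3 pSmad3 peaks (70%). Exact 95% Clopper-Pearson intervals of the list shares were 26.3 to 28 and 68.9 to 71. They cover counting error only and treat peaks as independent, which pieces of 1 call are not. The lists hold 8380 pSmad1/5 and 7682 pSmad3 calls.

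**Figure D3:**
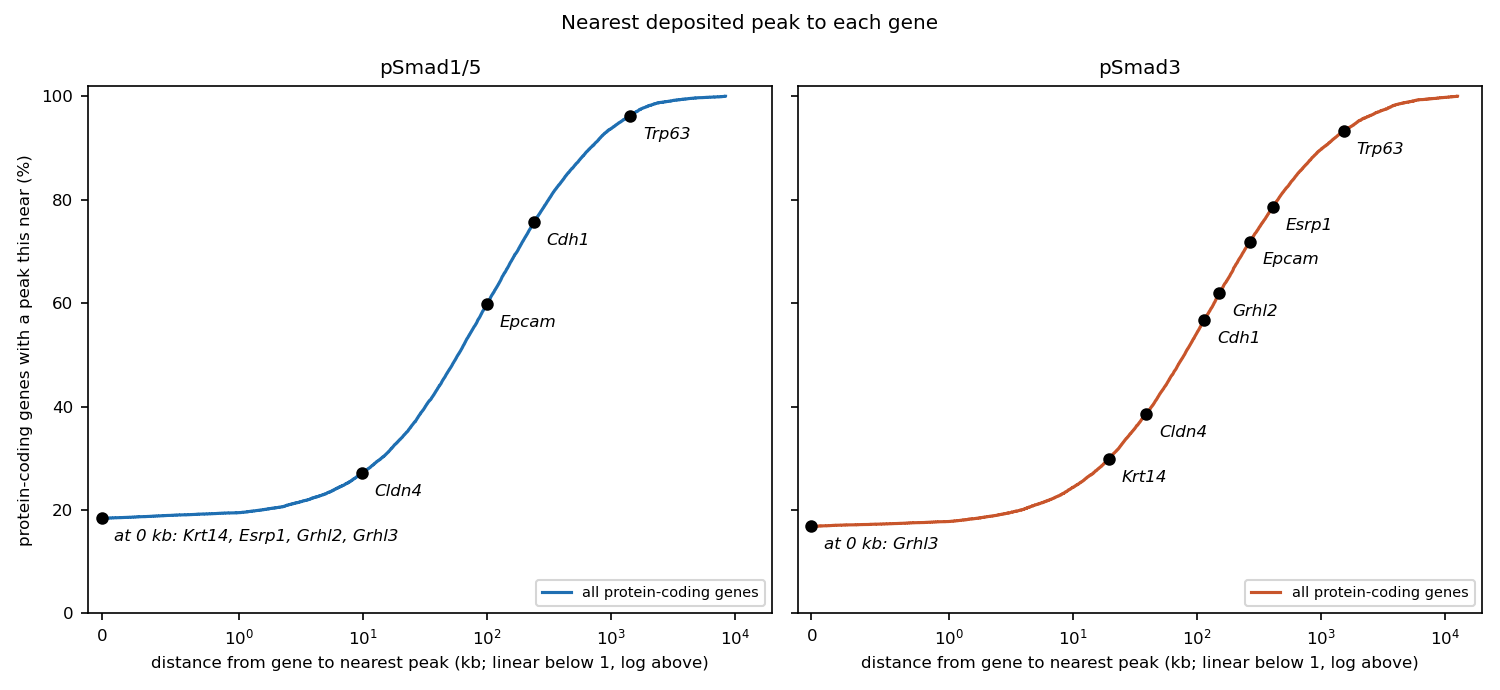
Cumulative share of protein-coding genes (%) by distance to the nearest peak (kb, linear below 1 and logarithmic above), for each antibody, with the 8 genes marked. Trp63 lies at 1427 and 1530 kb, past 9 in 10 genes on both curves, while Grhl3 is at 0 on both.

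Genes with related functions were counted in lists that share no gene with the 8. The 5 epithelial lists held 72 genes, of which 27 had a pSmad1/5 peak (37.5%), 21 a pSmad3 peak (29.2%), 11 both and 35 neither. Genes in the same length classes (4 classes of locus length, with equal numbers of genes) averaged 27.5% and 24.5%. These counts have no test, and several genes share a peak with a neighbour.

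Among 10 keratin genes, 4 had pSmad1/5 (40%) and 2 pSmad3 (20%), with 0 having both, against 19.8% and 17.4% in the same length classes. They rested on only 3 and 1 distinct peaks. Krt8, a simple epithelial keratin, held pSmad1/5 within its body at percentile 8.48, and Krt16 and Krt17 shared the pSmad3 peak at 11.2. Of 28 junction and adhesion genes, 9 had pSmad1/5, 9 pSmad3 (32.1% each) and 5 both. The same length classes averaged 28.4% and 25.3%. Tjp3, a scaffold of tight junctions, had 2 peaks of each, the highest at percentile 75.9 for pSmad1/5, inside the gene without overlap, and 94.1 for pSmad3, over a gene end. Its other pSmad1/5 peak, at percentile 0.577 and 592 bp outside the gene, lay wholly inside that pSmad3 peak. Jup (plakoglobin) had 1 peak of each inside the gene that did not overlap (80.9 and 87.5). Pkp1, a desmosomal plakophilin, had 3 and 2 peaks (66.6 and 80.4), and Cldn6 1 of each outside the gene (45.9 and 84.8). The highest pSmad1/5 percentile on this list, 91.6 near Dsg2, came from a peak 9560 bp outside the gene with a maximum of 36, over 2 times the list median.

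Of 18 epithelial regulators, 5 had pSmad1/5 (27.8%), 4 pSmad3 (22.2%) and 2 both, and 11 had neither (61.1%). These shares were near the background, 26.9% and 24.1% in the same length classes and 62.4% of all genes with neither. Ovol1, a repressor of mesenchymal genes, had 2 peaks of each antibody (66.6 and 48.6). Rbm47, which encodes an RNA-binding protein, had 2 pSmad3 peaks alone (72.8), while Elf5 had 2 pSmad1/5 peaks (41.9) and Tfap2c 1 (52.3). Of 10 basal adhesion genes, 5 had pSmad1/5 (50%), 4 pSmad3 (40%) and 3 both, against 33.8% and 30% in the same length classes. Lamb3, a chain of laminin-332, had 3 peaks of each (80.1 and 92.5), the pSmad1/5 peaks from 2 calls. Both pieces of the call at 80.1 lay outside the gene, at 3108 and 8436 bp. Plec, the hemidesmosomal plectin, had 2 of each (60.8 and 89.1), the pSmad1/5 peaks being pieces of 1 call. Fermt1 had pSmad1/5 alone (37.6).

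Surface proteases and their inhibitors numbered 6, of which 4 had pSmad1/5 and 2 pSmad3. Their length classes averaged 27.6% and 24.7%. St14 (matriptase) had a pSmad1/5 peak at percentile 81.1 wholly inside a pSmad3 peak, and its inhibitors Spint1 and Spint2 had pSmad1/5 alone (79.3 and 63.2), as did Tmprss2 (77.5). Prss8 had pSmad3 alone (46.0).

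**Figure D4:**
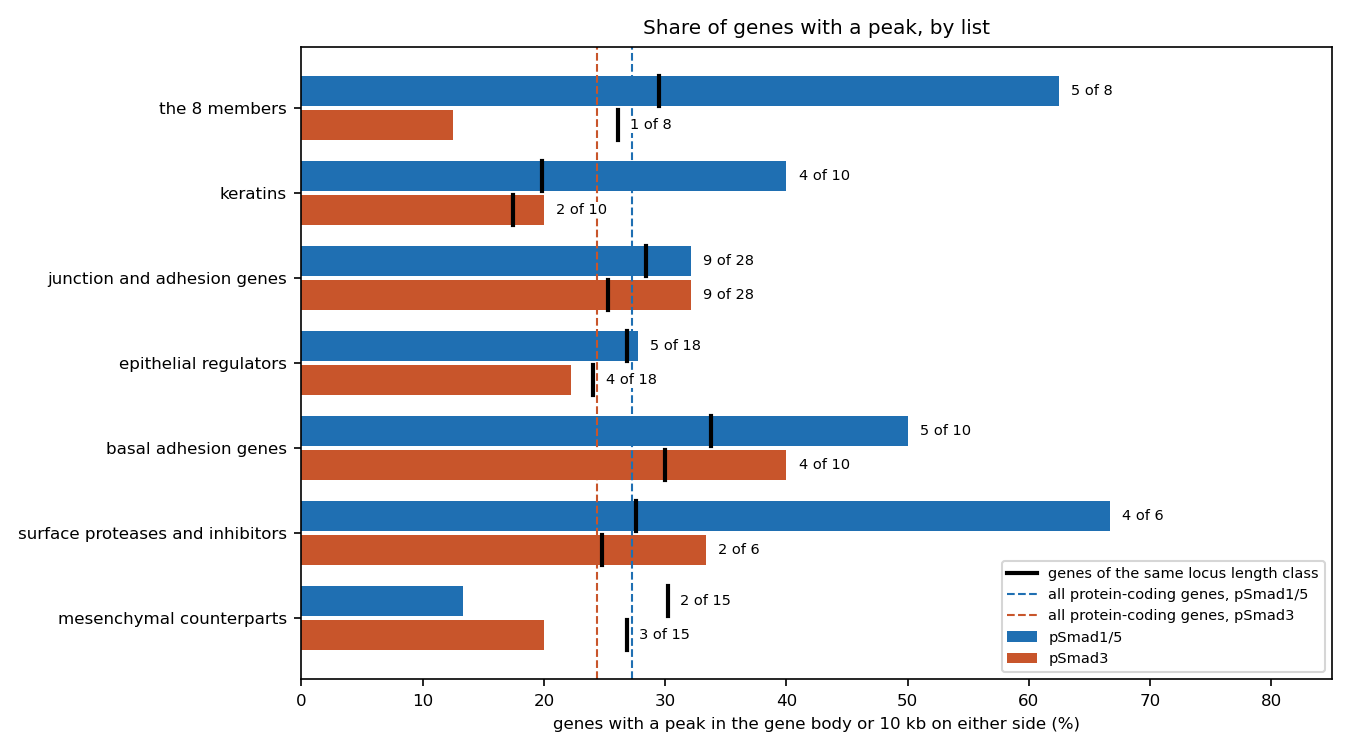
Share of genes (%) with a pSmad1/5 or pSmad3 peak in the locus for the 8 genes and each list, with the number of genes beside each bar; black ticks give the mean share of genes in the same length classes and dashed lines that of all protein-coding genes (27.3% and 24.4%). The 8 genes, chosen with their peaks known, stand at 5 and 1 of 8.

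By a rule of likeness (the same antibodies present and the nearest highest percentiles, over the 2 lists), members with a peak were matched to 1 gene each of the epithelial lists. Krt14 was closest to Tmprss2 (77.1 against 77.5), Cldn4 to Spint1 (82.1 and 79.3) and Esrp1 to Evpl (68.1 and 71.3), out of 16 genes with pSmad1/5 alone. Grhl3 was closest to Jup out of 11 genes with both antibodies, at 87.8 against 80.9 for pSmad1/5 and 89.5 against 87.5 for pSmad3.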

How the data were processed

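Each peak list was made by the authors from 2 libraries (30 min digestion, paired reads of 100 bp, per the labels' protocols). Per the submitters' processing notes, the tools were SEACR, Bowtie2, deepTools, SAMtools and bedtools, with build mm10. For their roles, settings, controls and the joining of libraries, nothing is given in the sources used here. The deposited total and maximum are signal (coverage) on a scale the authors do not state, and may come from 1 library. Depth is unknown.

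Genes came from RefSeq GRCm38.p6, leaving out genes starting in the first 3 Mb of a chromosome. Overlap code (Python 3.11.15, pandas 2.3.3) was tested on simulated intervals. Promoter windows are the 250 bases before a start. The 8 genes and all lists were chosen with earlier results of these data known. Named genes were all 8, and per list the 4 with the highest percentile and the 2 with the most peaks; a few of these are left out of the text. No test was run. Alternatives varied the locus, the peak position, the overlap, the peak threshold, the assignment and the unit counted.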

Additional observations from a re-analysis of the deposited data

How the results depend on the processing

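The counts of genes with a pSmad1/5 peak (4 or 5 of 8) and of pSmad1/5 peaks stayed within 1.5 times the reported values under every alternative run. With a reach of 50 kb the genes with a pSmad3 peak rose from 1 to 3 (Krt14, Cldn4 and Grhl3), the genes with both antibodies from 1 to 3, and the pSmad3 peaks from 3 to 7. No other alternative moved these counts by over 1.5 times. Of 144 counts for single genes under an alternative, 130 stayed within that bound, 10 fell and 4 rose, at Cldn4, Grhl2, Grhl3 or Krt14. With the stronger 50% of each list by total signal, Grhl2 lost its peak. Placing peaks by the maximum of the call was added after the data were seen. No paired analysis was possible because each antibody has 1 common list and no column per library, and for the same reason no library was left out. Signal below the authors' threshold was not examined, and depth is unknown.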

Other observations

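Mesenchymal genes, the usual counterparts of the epithelial set, were counted in the same way, with no test. Of 15, 2 had a pSmad1/5 peak (13.3%), 3 a pSmad3 peak (20% of them), 1 both and 11 neither, where genes in the same length classes averaged 30.2% and 26.8%. Col1a1, for type I collagen, had 2 pSmad3 peaks (percentile 59.3), Vim (vimentin) 1 pSmad3 peak outside the gene (18.6), Prrx2 1 pSmad1/5 peak (24.6), and Twist2 1 of each (8.73 for pSmad1/5 and 42.3 for pSmad3).

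The length of a deposited peak can be set beside that of its call. If the total sums coverage over bases, a call spans at least its total divided by its maximum. That least length was 6939 bp at Krt14, where the peak is 2825 bp, and 8756 bp for the inner Grhl3 call, where it is 2709 bp. The peak was shorter than the least length for 6 of 6 pSmad1/5 and 0 of 3 pSmad3 peaks of the set, and for 77.9% and 19.5% of the whole lists.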
